A study of Mus musculus with 8 samples.

Results

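The genes described are 9 of the complement system: the membrane regulators Cd59a, Cd55 and Cr1l, the plasma inhibitor Serping1, the C1q subunits C1qa, C1qb and C1qc, and the central components C3 and C4b. They are 9 of 20352 genes measured by microarray in whole cerebellum of mice aged 28 days. A gene's members on the array were the probe sets annotated with its symbol alone, 99 of 241576 probe sets in all, and its value was their mean on the log2 scale. The tested animals were 4 mice labelled Cic-L-null, mutants of the transcriptional repressor Capicua, and they were set against 4 wild-type mice. Both groups carried a mixed Swiss Webster (CD-1) background, and each animal gave 1 array. The labels name no litter, sex, Cre driver or separate line, and the mutation is not restricted to a cell type in them. The 9 genes were picked with the differences between these groups known, above all that of Cd59a, so their differences are given as a description and not as tests.

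Complement is a cascade of proteins that marks cells and debris for removal. C1q binds a target, its partner proteases cleave C4 and C2, and the resulting enzyme cleaves C3, which coats the target and can lead on to the membrane attack complex. Host cells carry inhibitors: CD55 speeds the decay of the C3-cleaving enzymes, Crry (the product of Cr1l in rodents) helps to inactivate them, and CD59 blocks assembly of the attack complex. In the brain, microglia are the main source of C1q, and C1q and C3 are known for tagging synapses that microglia remove during development.

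The altered gene, Cic, had log2 values of 7.50, 7.48, 7.62 and 7.54 in Cic-L-null cerebella, against 8.74, 8.57, 8.63 and 9.19 in wild-type cerebella. Every mutant array lay below every wild-type array. Y-linked genes were high in 3 Cic-L-null and 2 wild-type arrays, with low Xist in the same arrays, so the sexes were not balanced. The cerebellar neuron markers Pcp2, Calb1, Gabra6, Neurod1, Slc17a7, Gad1 and Pvalb, 7 of 7, lay above the limit for dim genes, which is the 95th percentile of 985 olfactory receptor genes (log2 6.21). Of the 9 complement genes, 8 lay above that limit and 1, Cd55, below it. Gene values of different genes are not compared with each other, because probe sets differ in brightness.

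Cd59a, the membrane inhibitor of the attack complex, was lower in the mutants. Its log2 values were 7.10, 7.08, 7.30 and 7.14 in Cic-L-null cerebella, against 7.78, 7.89, 7.86 and 7.70 in wild-type cerebella. All 4 mutant arrays lay below all 4 wild-type arrays, and the highest mutant and the lowest wild-type array were 0.39 apart. The means were 7.16 ± 0.10 in Cic-L-null and 7.81 ± 0.087 in wild-type (SD, n = 4 each), a difference of -0.65 (SE 0.071), or 1.57-fold. It is the 1 gene of the 9 past an adjusted p under 0.05, where 0.138% of all genes passed in either direction (limma over all genes, Benjamini-Hochberg). That call is what led to its choice, and nothing is read from the count. Its adjusted p was 0.0166, and it was over the threshold when single arrays were left out: 0.0592 with Cic-L-null replicate 2 removed, 0.0564 with Cic-L-null replicate 4 removed, 0.0532 with wild-type replicate 2 removed and 0.0550 with wild-type replicate 3 removed. The differences in those fits lay between -0.65 and -0.62. With the median over its probe sets the adjusted p was 0.0720, and with a block for replicate number it was 0.0573.

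Cd59a rests on 4 probe sets, and each of them had the mutant arrays below the wild-type arrays without overlap. Over all probe sets, 1.91% showed that pattern, and the 4 share their RNA and their gene, so they are not independent. Probe set 10474231 read 8.74, 8.19, 8.59 and 8.73 in Cic-L-null, against 8.87, 9.17, 9.27 and 9.10 in wild-type, a difference of -0.54 (SE 0.15). Probe set 10474232 differed by -0.60 (SE 0.11), and probe set 10474233 differed by -0.49 (SE 0.094). The remaining one, 10474230, differed by -0.98 (SE 0.24). Its means of 4.81 in Cic-L-null and 5.79 in wild-type lay below 6.31, the limit that probe sets of olfactory receptor genes set. Without that dim probe set the difference of Cd59a was -0.54. None of the 4 passed over all 241576 probe sets (limma), where 0.000414% did and 16418 had an unadjusted p under 0.05. The stretch of RNA that a probe set reads is not given in the sources used here.

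Cd59b, a copy of Cd59a that lies next to it on mouse chromosome 2, had overlapping groups, and whether the copies differ in response was not tested. It averaged 6.15 ± 0.083 in Cic-L-null and 6.21 ± 0.15 in wild-type cerebella (SD, n = 4 each), which differ by -0.060 (SE 0.080; limma, adjusted p = 0.888). Its mean lay just below the limit for dim genes, and 2 of its 5 probe sets were above the limit for probe sets. These 2, 10474226 and 10474227, differed by -0.23 (SE 0.10) and -0.32 (SE 0.15), so both lay below 0 like the probe sets of Cd59a, although their groups overlapped. Among the 5 measured genes on either side of Cd59a in the gene table of GRCm38.p6, Cd59b among them, 0 of 10 were called (limma) and 0 had an unadjusted p under 0.05. Their differences ran from -0.090 for Lmo2, a transcriptional cofactor, to 0.084 for A930018P22Rik. Each of the 10 had overlapping groups, whereas those of Cd59a, chosen for its difference, did not overlap. Over all genes 0.138% were called, 5.94% had no overlap and 1885 of 20352 had an unadjusted p under 0.05 (limma). Nothing is read from these counts.

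The start regions of the 2 adjacent copies are shown because the groups separated for one and overlapped for the other. They are RefSeq sequence of GRCm38.p6, from 250 bases before to 50 bases after the start, both on the plus strand, at chr2:104095551-104095850 for Cd59a and chr2:104070816-104071115 for Cd59b, and capitals would mark a Capicua octamer.
Cd59a: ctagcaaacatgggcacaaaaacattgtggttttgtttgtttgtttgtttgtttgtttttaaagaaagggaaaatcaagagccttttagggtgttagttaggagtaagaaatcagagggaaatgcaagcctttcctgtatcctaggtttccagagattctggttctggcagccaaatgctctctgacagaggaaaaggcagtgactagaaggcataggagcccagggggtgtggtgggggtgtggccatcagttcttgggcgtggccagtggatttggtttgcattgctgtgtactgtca
Cd59b: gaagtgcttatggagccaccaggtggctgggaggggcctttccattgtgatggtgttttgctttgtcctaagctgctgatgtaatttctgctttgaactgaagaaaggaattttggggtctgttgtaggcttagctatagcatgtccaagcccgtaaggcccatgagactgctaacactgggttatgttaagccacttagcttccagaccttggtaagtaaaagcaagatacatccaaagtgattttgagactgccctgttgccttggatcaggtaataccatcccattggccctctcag
No capitals appear, because neither window holds TGAATGAA or TGAATGGA on either strand. These are 2 octamers known for Capicua, and no other form was searched. Of the 9 genes, 6 had a window in the table (Cd59a, Cd55, Cr1l, C1qb, C1qc and C3), and 0 of the 6 held either of these octamers. Across 32851 windows of the same length, 2.47% held one. This says only that these letters are not in these windows.

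Markers of some cell types were, like Cd59a, lower in the mutants. Mature oligodendrocyte markers, 9 of 10 measured and all 9 above the dim limit, had a summed signal of log2 13.50 to 13.62 in Cic-L-null arrays, against 13.73 to 13.79 in wild-type arrays. The groups did not overlap. All 9 differences were below 0, and their median was -0.14, while that of all genes was -0.0071. Of the 9, 0 were called (limma) and 3 had an unadjusted p under 0.05, where 1885 of all 20352 genes did. Bergmann glia and astrocyte markers, 8 of 8 measured, summed to log2 13.28 to 13.35 in Cic-L-null, against 13.37 to 13.53 in wild-type. These sums did not overlap, but with Fabp7 left out, a choice made after seeing the data, they overlapped at 13.18 to 13.26 in Cic-L-null and 13.22 to 13.35 in wild-type. Of the 8 differences, 7 were below 0, with Gdf10 at -0.33 (SE 0.073) and Aldh1l1 at -0.23 (SE 0.070) without overlap. The remaining difference, that of the glutamate transporter Slc1a2, was above 0 at 0.12 (SE 0.057), also without overlap. Of the 8, 1 fell past the threshold, Fabp7, a fatty acid carrier of Bergmann glia, at -1.17 (SE 0.14; limma, adjusted p = 0.0180). Endothelial and pericyte markers, 9 of 10 measured, summed to 11.47 to 11.78 in Cic-L-null and 11.66 to 11.88 in wild-type, with overlap. Of their differences, 7 were below 0 and 2 above, and 0 were called (limma). In 2 the groups did not overlap, as in 5.94% of all genes. Choroid plexus and ependymal sums overlapped too, with 6 of 7 markers below 0. The mean sums differed by -0.20 for endothelium and -0.26 for choroid plexus, against -0.18 for oligodendrocytes and -0.17 for astrocytes. The part of these cell types in the Cd59a value was not tested, and in bulk tissue fewer cells of a type and less RNA per cell cannot be told apart.

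**Figure D1:**
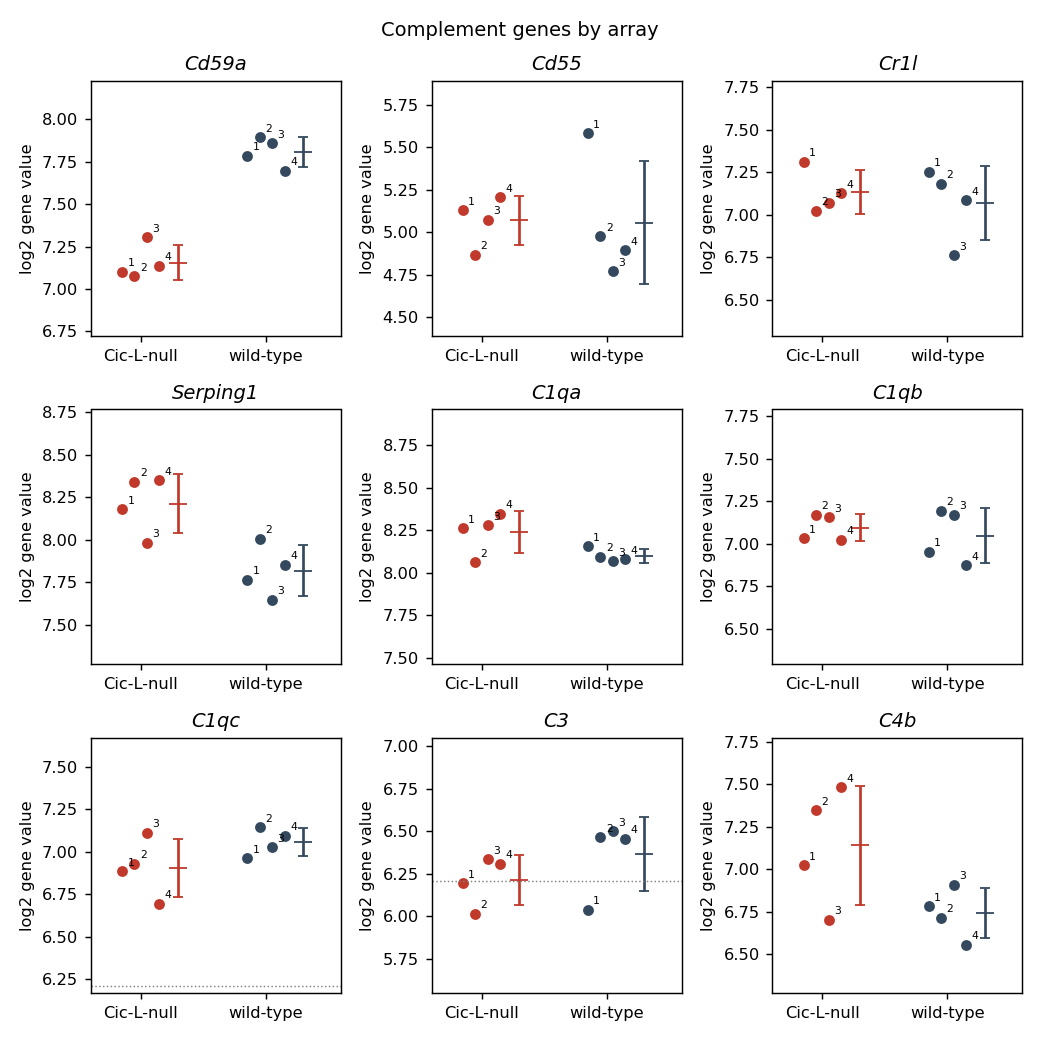
Log2 gene value of the 9 complement genes (y axis, each panel spanning 1.5 log2 units) in Cic-L-null arrays (left, red) and wild-type arrays (right, blue), 1 numbered point per array, with the mean and SD (n = 4) beside each group. The dotted line, where it falls in a panel, is the dim limit of 6.21. Cd59a is the 1 gene whose groups do not overlap, and wild-type replicate 1 lies apart in C3.

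Serping1 encodes C1 inhibitor, which blocks the proteases bound to C1q and those of the contact system. Its log2 values were 8.18, 8.34, 7.98 and 8.35 in Cic-L-null cerebella, against 7.77, 8.01, 7.65 and 7.85 in wild-type cerebella. The groups overlapped by a single pair, since Cic-L-null replicate 3 lay just below wild-type replicate 2. The means were 8.21 ± 0.17 in Cic-L-null and 7.82 ± 0.15 in wild-type (SD, n = 4 each), a difference of 0.40 (SE 0.10). Among its 8 probe sets, 7 averaged higher in the mutants, 4 of these without overlap, and the median of the 8 differences was 0.46. The exception, 10484470, differed by -0.24 (SE 0.19) and lay above the limit for probe sets. With the median over probe sets in place of their mean, the gene differed by 0.084. Leaving out Cic-L-null replicate 3 gave 0.47 (SE 0.093).

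C4b, the complement component cleaved by the C1q-bound protease C1s, had log2 values of 7.02, 7.35, 6.70 and 7.48 in Cic-L-null cerebella, against 6.78, 6.71, 6.91 and 6.55 in wild-type cerebella. The mutant arrays spread widely: 3 lay above every wild-type array, whereas replicate 3 lay among them. The means were 7.14 ± 0.35 in Cic-L-null and 6.74 ± 0.15 in wild-type (SD, n = 4 each), a difference of 0.40 (SE 0.15). Of its 18 probe sets, which are not independent, 17 had a higher mean in the mutants, with a median of 0.24. In 3 of the 18 the groups did not overlap, where 4.3% of all probe sets had no overlap in either direction. The highest difference, 1.61 (SE 0.41), came from probe set 10450258, whose means of 6.59 in Cic-L-null and 4.98 in wild-type straddle the limit for dim probe sets. A further probe set without overlap, 10450252, differed by 0.77 (SE 0.17), its means of 6.93 in Cic-L-null and 6.16 in wild-type also straddling that limit. In the remaining one without overlap, 10450257, both means lay above that limit and the difference was 0.13 (SE 0.083). With probe sets above the limit only, the gene differed by 0.27.

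C4a is a close copy of C4b that lies near it and is listed as a transcribed pseudogene in the gene table. It differed by 0.10 (SE 0.11) over 15 probe sets, 8 higher and 7 lower in the mutants. The 4 probe sets annotated to both copies, which entered no gene, differed by -0.33 to 0.58. Signal could be split between the copies, so the C4b value is uncertain to that extent. Among other complement genes of the same histocompatibility region, C2 differed by 0.0044 (SE 0.12) and Cfb, factor B of the alternative pathway, by -0.11 (SE 0.066).

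Serping1 and C4b shared their order in the mutants. Both were lowest in Cic-L-null replicate 3, then replicates 1, 2 and 4. Their order in the wild-type arrays differed: replicate 3 was lowest for Serping1 and highest for C4b. Cic-L-null replicate 3 was also the mutant with low Y-linked signal, and it had the lowest summed signal of choroid plexus and ependymal markers, log2 11.42, where the other mutants started at 12.40 and the wild-type arrays lay from 12.41 to 12.86. Cic-L-null replicate 1, the next lowest mutant for Serping1 and C4b, had the highest such sum of the 8 arrays. With a covariate of Y-linked genes, Serping1 differed by 0.36 and C4b by 0.35. The part of sex or choroid plexus in these values was not otherwise tested.

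**Figure D2:**
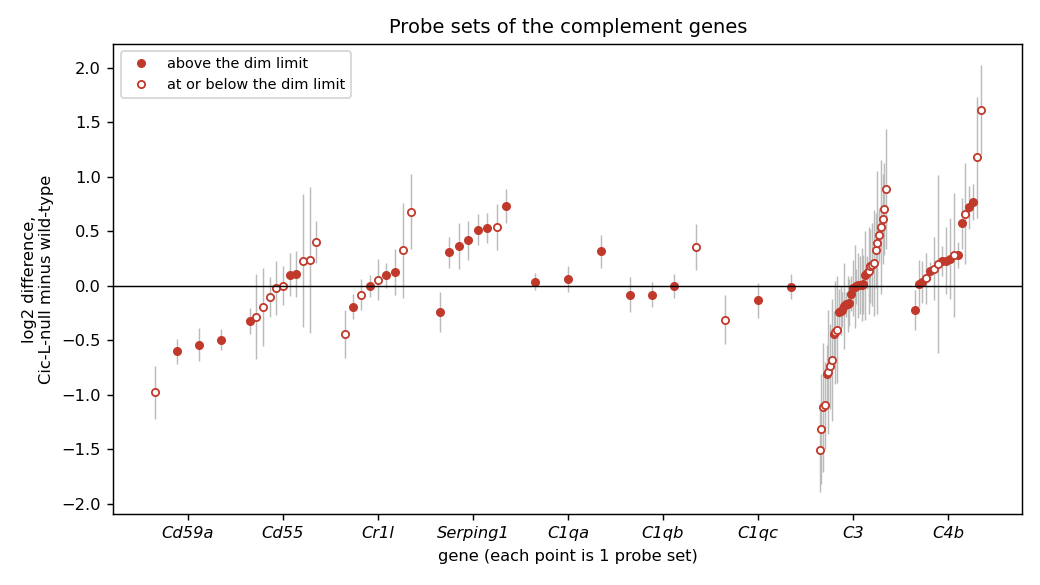
Log2 difference, Cic-L-null minus wild-type (y axis), of each of the 99 probe sets of the 9 genes (x axis), with its SE as a grey bar and sorted within a gene. Filled points lie above the dim limit and open points at or below it. The 4 Cd59a points all lie below 0, 7 of 8 Serping1 points and 17 of 18 C4b points lie above 0, and the C3 points run from -1.51 to 0.89.

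The subunits of C1q are encoded by 3 adjacent genes on mouse chromosome 4 and assemble into 1 protein. C1qa had log2 values of 8.26, 8.06, 8.28 and 8.35 in Cic-L-null cerebella, against 8.16, 8.09, 8.07 and 8.08 in wild-type cerebella. In this subunit 3 mutants lay above all wild-type arrays and replicate 2 lay below them, for a difference of 0.14 (SE 0.069), or 0.080 with the median over probe sets. C1qb read 7.03, 7.17, 7.15 and 7.02 in Cic-L-null, against 6.95, 7.19, 7.17 and 6.87 in wild-type, a difference of 0.048 (SE 0.083) with intermingled groups, and of -0.011 without wild-type replicate 4.

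C1qc read 6.89, 6.93, 7.11 and 6.69 in Cic-L-null, against 6.96, 7.14, 7.03 and 7.09 in wild-type, a difference of -0.15 (SE 0.087). It was -0.081 without Cic-L-null replicate 4 and -0.072 with probe sets above the dim limit. The mean of the 3 subunits was 7.41 ± 0.071 in Cic-L-null and 7.40 ± 0.061 in wild-type (SD, n = 4 each), which differ by 0.012. The subunits thus differed in sign, and each rests on few probe sets: 3 for C1qa (all higher), 4 for C1qb (1 higher, 3 lower) and 3 for C1qc (all lower), each with overlapping groups.

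Microglia markers overlapped between the groups, as did the C1q mean. Of 16 markers, 15 were measured and 11 lay above the dim limit, with P2ry12, Aif1, Fcrls and Gpr34 below it. Their summed signal was log2 11.17 to 11.35 in Cic-L-null arrays, against 11.15 to 11.25 in wild-type arrays, with overlap. Of the 15, 7 were above 0 and 8 below, with a median of -0.014. By limma 0 were called and 2 had an unadjusted p under 0.05, where 1885 of all 20352 genes did. Those 2 went opposite ways: Fcrls, a microglial scavenger receptor, differed by -0.44 (SE 0.15) at dim levels and is the 1 marker of the 15 whose groups did not overlap, and Ly86, a partner of a Toll-like receptor homologue, differed by 0.25 (SE 0.11) with overlap. Border macrophage markers, 7 of 7 measured, summed to 8.88 to 9.08 in Cic-L-null and 8.83 to 8.99 in wild-type.

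**Figure D3:**
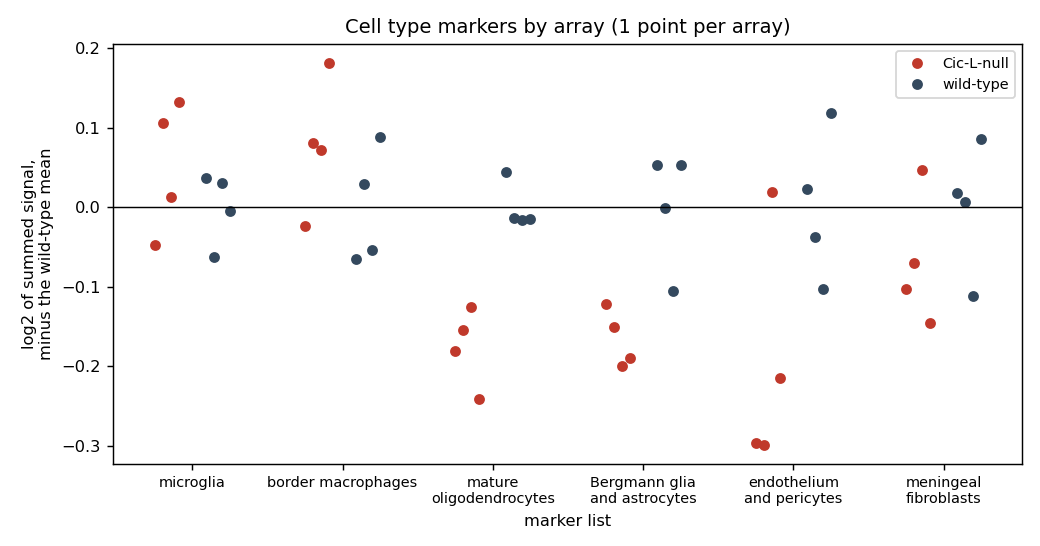
Log2 of the summed signal of 6 marker lists (x axis), given as the difference from the wild-type mean (y axis), 1 point per array, Cic-L-null in red on the left and wild-type in blue on the right of each list. Oligodendrocyte markers have all 4 mutant arrays below all 4 wild-type arrays, Bergmann glia and astrocyte markers do so only with Fabp7 in the sum, and microglia markers overlap.

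C3, the component on which all complement routes converge, had log2 values of 6.19, 6.01, 6.33 and 6.31 in Cic-L-null cerebella, against 6.04, 6.47, 6.50 and 6.46 in wild-type cerebella. Of the wild-type arrays 3 lay close together above every mutant, whereas replicate 1 lay among the mutants. The difference was -0.15 (SE 0.11), and it was -0.26 (SE 0.081) without wild-type replicate 1 and -0.085 without Cic-L-null replicate 2. The label of 1 array gives a Trizol and RNeasy extraction, unlike the other 7. The part of extraction in the values of C3, or of any other gene here, was not tested. The gene lies just above the limit for dim genes, with 19 of 39 probe sets above the limit for probe sets. Their differences ran from -1.51 to 0.89 with a median of -0.022, and a gene value taken as their median differed by 0.055.

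Cd55 and Cr1l, the regulators that act on the C3-cleaving enzymes, had intermingled groups. Cd55 read 5.13, 4.87, 5.07 and 5.21 in Cic-L-null, against 5.58, 4.98, 4.77 and 4.89 in wild-type, a difference of 0.013 (SE 0.16). It lies below the limit for dim genes, and 3 of its 11 probe sets were above the limit for probe sets. Of those 3, probe set 10357497 averaged 7.70 ± 0.091 in Cic-L-null and 8.02 ± 0.21 in wild-type (SD, n = 4 each) with no overlap, a difference of -0.33 (SE 0.12). This probe set went the other way from the gene's mean, and with the median over probe sets Cd55 differed by -0.29.

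Cr1l read 7.31, 7.02, 7.07 and 7.13 in Cic-L-null, against 7.26, 7.18, 6.76 and 7.09 in wild-type, a difference of 0.063 (SE 0.11). Its probe sets were divided, 5 higher and 4 lower, and with their median the gene differed by -0.12. Of the 3 membrane regulators, Cd59a, which was chosen for its difference, differed by several times its SE. The differences of Cd55, a dim gene, and Cr1l were smaller than their SE and changed sign with how probe sets were combined. Because of that choice, nothing is read from the contrast between the 3.

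Across the 9 genes, 6 differences were above 0 and 3 below, with a median of 0.048. Groups did not overlap in 1 of the 9, where 5.94% of all genes had no overlap. Of the 99 probe sets, 14 had no overlap, where 4.3% of all probe sets had none, and 0 were called (limma, 19 with an unadjusted p under 0.05). Over all 241576 probe sets, 16418 had such a p. Since the genes were picked from this contrast, nothing is read from these counts.

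The rest of the complement system was taken from a list of 54 genes, of which 51 were measured and 23 lay above the dim limit. None was called (0 of 51 with limma), and their median difference was -0.025. By limma 4 of the 51 had an unadjusted p under 0.05, where 1885 of all 20352 genes did. All 51 differences lay between -0.21 and 0.21. Classical and lectin pathway genes, 15 of 15 measured, had 7 above 0 and 8 below. C1s1, the mouse gene of the C1s protease, differed by -0.12 (SE 0.068) and Colec10, a collectin, by -0.094 (SE 0.067). Both means of C1s1, 4.27 in Cic-L-null and 4.39 in wild-type, were dim. Alternative pathway and attack complex genes, 10 of 10 measured, had 5 above 0 and 5 below, and only Cfd and Cfp lay above the dim limit. Besides Cfb, C8g, a subunit of the attack complex, had the smallest p, at 0.066 (SE 0.057).

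Other complement regulators, 18 of 21 measured, had 7 above 0 and 11 below. Csmd3, a large membrane protein with complement control domains, averaged 8.57 ± 0.086 in Cic-L-null and 8.36 ± 0.069 in wild-type (SD, n = 4 each). Its groups did not overlap, and its difference of 0.21 (SE 0.064) had an adjusted p of 0.30 with limma. Cpn2, a subunit of the carboxypeptidase that trims complement fragments, differed by -0.15 (SE 0.063). Clu, the secreted attack complex inhibitor clusterin, averaged 10.98 ± 0.043 in Cic-L-null and 11.11 ± 0.061 in wild-type without overlap, and its difference of -0.13 (SE 0.057, adjusted p = 0.508 with limma) was named after its value was seen. Complement receptors, 8 of 8 measured, had 3 above 0 and 5 below. Vsig4, a macrophage receptor for C3 fragments, differed by -0.19 (SE 0.074), and C5ar1, the C5a receptor, by -0.20 (SE 0.11), both at dim levels.

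Genes that carry a C1q domain but are not part of complement include the cerebellins, which organise synapses of granule cells on Purkinje cells. Of 8 measured, 0 were called (limma, 1 with an unadjusted p under 0.05), with a median of 0.022. Over all genes, 1885 of 20352 had such a p. C1ql1, a climbing fibre synapse organiser, differed by 0.24 (SE 0.098, adjusted p = 0.465). Its high mean of 7.85 in Cic-L-null, against 7.61 in wild-type, leaned on replicate 2 at 8.18, where the other mutants lay from 7.73 to 7.76. Those mutants too lay above every wild-type array, the highest of which was 7.68. Cbln3, a granule cell cerebellin, differed by 0.11 (SE 0.059), and Cbln1 by -0.013 (SE 0.055).

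**Figure D4:**
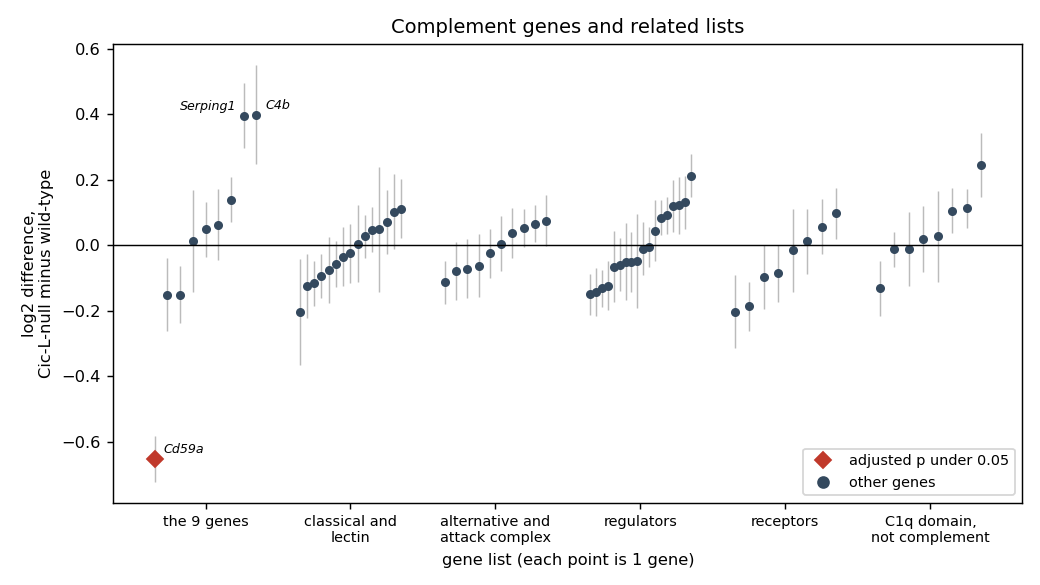
Log2 difference, Cic-L-null minus wild-type (y axis), with SE bars, for the 9 genes and for genes of related lists (x axis), sorted within a list. The red diamond is Cd59a, the 1 gene shown with an adjusted p under 0.05. The 51 other complement genes lie between -0.21 and 0.21, and Serping1 and C4b lie at 0.40.

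The genes most like Cd59a over the 8 arrays were Top2a, Pmp22 and Luzp2. Likeness was the root mean square difference between the deviations of both genes from their own means, and it was 0.12, 0.13 and 0.14 log2 units. Top2a, a topoisomerase of dividing cells, was lower in Cic-L-null by 0.56, Pmp22, a myelin protein gene, by 0.45 and Luzp2 by 0.49. Each was itself called (limma, adjusted p = 0.0180, 0.0301 and 0.0258 in that order). The measure takes in the difference between the groups, for which Cd59a was chosen, so nothing further is read from these matches. For the mean of the C1q subunits, which hardly varied, the closest were Tespa1 (0.018 log2 units), Kif5c (0.026) and 2810002D19Rik (0.027), each with a difference under 0.02 in size.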

How the data were processed

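RNA of 8 cerebella was measured on Affymetrix Mouse Gene 1.0 ST arrays, 1 per animal. The label of 1 array gives a Trizol and RNeasy extraction, unlike the others, and no fit had a term for extraction. The deposited values are log2 expression, which the authors computed by RMA; the submitters' processing notes name the Affymetrix Power Tools. No version or genome build is given in the sources used here. There were 241576 probe sets, with array medians of 7.82 to 7.88. Arrays give no read depth, and the number of arrays limits the precision.

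Names came from the platform annotation. It gave 1 symbol to 212097 probe sets, several to 4475 and none to 25004. Of 20416 symbols, 17621 were current in the GRCm38.p6 gene table, 2742 were replaced through a synonym of 1 gene and 53 were kept. Probe sets with 1 symbol were averaged into 20352 genes. The annotation's build is not stated, so no coordinates are taken from it. List genes that were not measured are not analysed here.

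Groups were compared with limma 3.58.1 in R 4.3.3 (lmFit, eBayes without trend, group as the only term, two-sided, Benjamini-Hochberg over all genes or all probe sets, threshold 0.05). Differences are Cic-L-null minus wild-type. The fits were tested on simulated data. Titles gave the groups and numbered the replicates. Dim limits are the 95th percentile of olfactory receptor genes or probe sets.

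Genes named are the 9 genes and Cic, from each list of complement and related genes those called and the 2 with the smallest p, and from each cell type list those called. Also named are the neighbours of Cd59a, the 3 genes most like it or the C1q mean, and marker genes for their level. Aldh1l1, C2, C4a, Cbln1, Clu, Fcrls, Gdf10, Gfap, Lcn2, Ly86, Osmr, Plg and Slc1a2 were named after their values were seen. The 9 genes and all lists were chosen with earlier results of these data known. Alternatives covered how probe sets are combined, dim limits, normalisation, the variance model, array weights, a Y-linked covariate, a replicate block and each array left out.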

Additional observations from a re-analysis of the deposited data

Results flagged for a closer look

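C3 in wild-type replicate 1 was 6.04, far from the other wild-type arrays at 6.46 to 6.50. C1ql1 in Cic-L-null replicate 2 was 8.18, far from the other mutants at 7.73 to 7.76. The summed signal of mature oligodendrocyte markers in wild-type replicate 1 was log2 13.79, above the other wild-type arrays at 13.73, which themselves lay above the mutant arrays at 13.50 to 13.62. These 3 values stood apart by Dixon's criterion among 68 groups of 4 examined, and chance flags about 1 in 20 groups.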

How the results depend on the processing

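Cd59a was lower in Cic-L-null in all 17 alternatives. Its size was -0.55 when probe sets were combined by their median (adjusted p = 0.0720) and -0.54 with probe sets above the dim limit (adjusted p = 0.0279), and between -0.70 and -0.62 with each array left out. Its adjusted p ran from 0.00182 to 0.0720 and was over 0.05 in 6 of the 17, 4 of them with an array left out. Serping1, C1qa, C1qc and C4b kept their sign in all 17 alternatives, but Cd55, Cr1l, C1qb and C3 did not.

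The count of genes called was 28 and became 2 with each gene's probe sets combined by median, 69 among genes above the dim limit, 130 with a trended and robust variance, 54 with array weights, 18 with the Y-linked covariate and 0 to 37 with each array left out. The count of probe sets called was 1 and became 5 above the dim limit, 71 with a trended and robust variance, 0 with the Y-linked covariate and 0 to 3 with each array left out. The other complement genes stayed at 0 called throughout. The causes were not tested. Replicate numbers are shared between the groups, and same-numbered arrays correlated at 0.219, 0.000325, 0.207 and 0.0262 for replicates 1 to 4. Replicates 1 and 3 of Cic-L-null were closest to the wild-type array of their own number, and replicates 2 and 4 were not. These values cannot settle whether the arrays were paired. With the replicate block 0 genes and 0 probe sets were called, and Cd59a had an adjusted p of 0.0573. Array signal limits Cd55, below the dim limit, and C3, just above it.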

Other observations

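Genes of reactive astrocytes, a state in which astrocytes are known to produce C3 and Serping1, showed 10 of 21 measured members above 0 and 11 below, with a median of -0.0012. None was called (0 with limma, 4 with an unadjusted p under 0.05), where 1885 of all 20352 genes had such a p. H2-T23, a non-classical class I histocompatibility gene, averaged 7.68 ± 0.080 in Cic-L-null and 7.37 ± 0.12 in wild-type (SD, n = 4 each) without overlap, and differed by 0.31 (SE 0.074; limma, adjusted p = 0.172). Cp, the copper protein ceruloplasmin, differed by 0.35 (SE 0.12), Lcn2 by 0.36 (SE 0.13) at dim levels and Osmr by 0.22 (SE 0.076) without overlap. With H2-T23 these are the 4 with an unadjusted p under 0.05, and all 4 were higher in Cic-L-null. Gfap, the astrocyte filament protein, differed by -0.14 (SE 0.077) with overlap. The summed signal of the list was log2 12.05 to 12.34 in Cic-L-null and 12.06 to 12.40 in wild-type.

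Genes of the contact and kinin system, whose proteases Serping1 also inhibits, were measured in 8 of 8 cases, and 2 lay above the dim limit. None was called (0 with limma and 0 with an unadjusted p under 0.05), and the differences ran from -0.069 for Plg to 0.085 for Kng1, with Kng2 at 0.071 (SE 0.099). Meningeal fibroblast markers summed to log2 11.07 to 11.27 in Cic-L-null and 11.11 to 11.31 in wild-type. Blood cell markers summed to 8.91 to 9.38 in Cic-L-null and 8.69 to 9.06 in wild-type, and neuron markers to 14.56 to 14.58 in Cic-L-null and 14.46 to 14.59 in wild-type.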
